A study of Caenorhabditis elegans with 7 samples.

Results

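The genes described here encode the cytoskeletal motors of Caenorhabditis elegans that walk along microtubules: the kinesins, cytoplasmic dynein, its cofactor dynactin and a small set of dynein regulators. They were taken by gene symbol from the annotation of the array's probe sets, as every gene named klp, dhc, dli, dlc, dylt, dyrb or dnc with a number, except klp-11 and klp-20, together with klc-1, bmk-1, zen-4, vab-8, dyci-1, lis-1, nud-1, nud-2 and bicd-1. This gave 38 genes among the 17118 that a probe set with a single symbol measured. The probe set for a further kinesin, klp-12, was annotated with more than 1 gene entry, so klp-12 was not among the 38.

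The arrays came from dissociated embryos grown in culture for 24 hours. In the A-class group, cells carrying an unc-4::GFP reporter were taken by fluorescence-activated sorting, about 90% of them GFP-positive, and 3 biological replicates were hybridized. In the reference group, 4 biological replicates held all viable cells of wild-type (N2) cultures, which were sorted only to leave out those that propidium iodide had stained. RNA from both groups (100 ng of total RNA a sample) passed through 2 rounds of in vitro transcription before labeling, and each Affymetrix array measured 22548 probe sets. The unc-4 promoter marks the embryonic A-class motor neurons (DA and SAB) and also the pharyngeal neuron I5, the reporter strain is 1 transgenic line, and the reference holds every cell type of the culture, A-class neurons included.

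Kinesins mostly move toward the plus ends of microtubules, which point away from the cell body in axons, and dynein moves toward the minus ends. Neurons use kinesin-1 and kinesin-3 to carry vesicles and organelles outward and use dynein with dynactin to bring cargo back. Dividing cells use other kinesins, together with dynein, to build the spindle, to move chromosomes and to complete cytokinesis.

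The arrays were alike in overall level, with array medians of 66.9 to 70.1 intensity units (linear values from RMA, the summary method that also equalizes arrays). The squared correlation of log2 values was 0.893 to 0.947 between A-class arrays, 0.938 to 0.969 between reference arrays and 0.772 to 0.876 between the groups. The reporter's own gene, unc-4, read 1289, 1155 and 1386 in the A-class and 90.1 to 111 in the reference, a log2 difference of 3.72, and 3 of 5 A-class motor neuron markers (unc-4, unc-3 and unc-17) were called higher. Summed over the 5 markers, the A-class arrays held 2204 to 3048 units and the reference arrays 506 to 596. Markers of other cells were summed likewise: 6 touch neuron genes gave 552 to 605 in the A-class and 1141 to 2517 in the reference, 9 body wall muscle genes gave 1316 to 2169 and 2461 to 3805, and 9 hypodermal genes gave 1723 to 2849 and 3666 to 6707. Of these 3 lists the limma call took 1 touch neuron gene (mec-7), 1 hypodermal gene (dpy-2) and 0 muscle genes, all called genes lower. SAM took 3, 1 and 2, all lower. With limma at an unadjusted p under 0.05, the touch neuron list held 4 lower and 0 higher and the hypodermal list 7 lower and 0 higher. The muscle list held 7 lower and 1 higher (unc-22, log2 difference 0.92). Of 9 pan-neural genes 3 were called higher (ric-4, unc-10 and sng-1), of 8 germline genes 1 was called higher (gld-1), and limma called 0 of the 4 GABA, 10 ciliated neuron, 5 pharyngeal muscle and 8 intestinal genes (at an unadjusted p under 0.05 the intestinal list held 3 higher and 2 lower, the GABA and ciliated lists 2 lower each and the pharyngeal list 1 lower). At the same unadjusted limit the pan-neural list held 6 higher and 1 lower (unc-64, log2 difference -0.74). The germline list held 3 higher and 1 lower (glp-1, -0.93). None of these marker genes was at 0 on any array, and what part such cells had in the results below was not tested. Fluidics module 1 processed reference 1, reference 4, A-class 2 and A-class 3, module 2 processed reference 2 and A-class 1, and module 3 processed reference 3 alone. Arrays of the A-class and of the reference never shared a chip lot or a hybridization day, and group cannot be told apart from either. Nor can group be told apart from strain, the unc-4::GFP line in the A-class and N2 in the reference.

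The question put to the motor genes was which of them were more or less abundant in the A-class neurons than in the whole culture. A gene was called where limma's moderated test gave a Benjamini-Hochberg adjusted p, over all 22548 probe sets, under 0.01 with at least a 1.7-fold difference. By this rule 1 of the 38 motor genes fell in the A-class, the spindle kinesin bmk-1, and 0 rose. Over all 17118 genes 3.30% were called lower and 2.20% higher, so the motor genes stood near the background in both directions. At an unadjusted p under 0.05 there were 11 motor genes, 5 higher and 6 lower, where 33.9% of all genes passed (3089 higher and 2716 lower). The other tool run, SAM, called 1 motor gene higher (dnc-1) and 3 lower (bmk-1, klp-7 and zen-4), against 3.09% and 4.85% of all genes. The median log2 difference was 0.06 over the 38 and 0.05 over all genes. On 11 of the 38 genes the A-class arrays did not overlap the reference arrays, 5 with the A-class higher and 6 with it lower, where 17.1% and 13.6% of all genes were separated in those directions. In samples of mixed cells such as the reference, fewer cells of a type and less RNA per cell cannot be told apart.

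**Figure D1:**
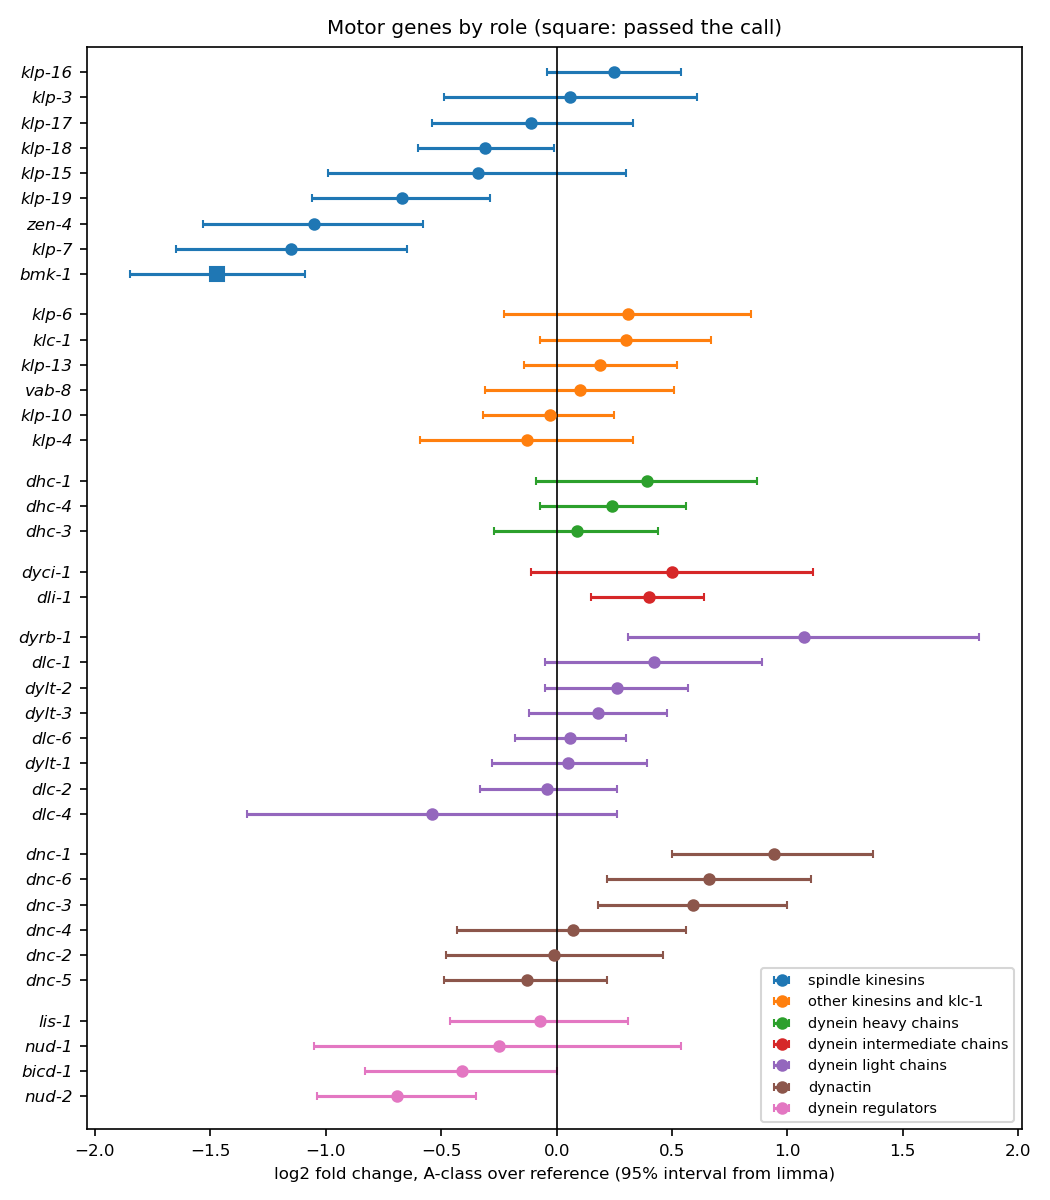
Log2 fold change (A-class over reference, x axis) of each of the 38 motor genes (y axis), colored by role, with the 95% interval from limma as a bar and a square for the gene that passed the call. The square is bmk-1 at -1.47, and the points of the dynein and dynactin subunits lie mostly to the right of 0 while those of the dynein regulators all lie to the left.

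The spindle and chromosome kinesins held the single call. bmk-1, the kinesin-5 that crosslinks and slides spindle microtubules, read 131, 120 and 115 in A-class replicates 1 to 3 and 266, 362, 424 and 316 in reference replicates 1 to 4. Every A-class array was below the dimmest reference array. The means were 122 ± 8.11 (SD, n = 3) and 342 ± 67.5 (SD, n = 4), so bmk-1 was 2.77-fold lower in the A-class, with a log2 difference of -1.47 ± 0.17 (SE), a 95% interval of -1.85 to -1.09 and a limma adjusted p of 0.00159. A second probe set for bmk-1 gave 67.6, 53.6 and 62.0 against 231, 320, 378 and 294, a log2 difference of -2.31 with a limma adjusted p of 0.000403, and was also called lower. The call held with each array left out in turn (adjusted p 0.00141 to 0.0089). It was lost with the replicate number as a block (log2 difference -1.50, limma adjusted p 0.016). It was lost too when the arrays were limited to fluidics module 1, where 2 A-class arrays met 2 reference arrays (log2 difference -1.30, limma adjusted p 0.0873) and 0 of the 17118 genes passed (at an unadjusted p under 0.05, 8 of the 38 motor genes), and in module 2 the single pair differed by -1.47.

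A further 3 spindle kinesins had every A-class array below every reference array but missed the call. Over all genes 13.6% were separated in this direction. zen-4 encodes the kinesin-6 of centralspindlin, the complex that bundles midzone microtubules during cytokinesis. It read 257, 287 and 165 in the A-class and 405, 565, 455 and 496 in the reference. The log2 difference was -1.05 ± 0.21 (SE) with a limma adjusted p of 0.0122, just above the limit, and its second probe set gave -0.52 (limma adjusted p 0.0482). klp-7, a kinesin-13 that takes microtubule ends apart in place of walking, ran from 113 to 152 in the A-class and from 213 to 382 in the reference (log2 difference -1.15, limma adjusted p 0.0103). klp-7 was called lower when reference 3, its dimmest reference array, was left out (adjusted p 0.006). klp-19, a kinesin-4 that acts on chromosomes in the spindle, ran from 175 to 190 and from 218 to 355 (log2 difference -0.67, limma adjusted p 0.0287), and it was called lower without reference 1 (adjusted p 0.00909).

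The other 5 of the 9 spindle kinesins overlapped between the groups, with log2 differences of -0.34 (klp-15) to 0.25 (klp-16) and no limma adjusted p below 0.135. klp-18 acts in the meiotic spindle of the oocyte, as do klp-15 and klp-16, kinesins of the minus-end directed kinesin-14 family that are near-identical copies of each other. Probes for klp-15 and klp-16 can bind both transcripts, so their values are uncertain, and the probe sets for klp-16 differed in sign (0.25 and -0.28). The klp-16 probe set used was dim, with means of 15.8 in the A-class and 13.2 in the reference. SAM called 3 of the 9 spindle kinesins lower and 0 higher, against 4.85% and 3.09% of all genes. At an unadjusted p under 0.05 with limma, 5 were lower and 0 higher, where 2716 and 3089 of all 17118 genes were. Over the 9 spindle kinesins limma called 1 lower and 0 higher, and the median log2 difference was -0.34. Of their log2 differences 7 were below 0 and 2 above. Over all 17118 genes 3.30% were called lower and 2.20% higher, and 7508 were below 0 and 9610 above.

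Genes outside the set that work with these kinesins were counted for comparison. Of 27 spindle and cytokinesis partners, 6 fell and 2 rose, with a median log2 difference of -0.55. The lowest were cyb-3, a B-type cyclin (log2 difference -2.22), plk-1, a mitotic kinase (-1.96), and air-2, the Aurora B kinase that works with zen-4 (-1.74), while zyg-9, which promotes microtubule growth at spindle poles, rose (1.34). Of 16 DNA replication genes 5 fell and 0 rose, led by mcm-7 (-3.66) and mcm-5 (-1.69) of the replicative helicase, with a median of -0.71. SAM called 6 of the 16 lower and 0 higher, and at an unadjusted p under 0.05 with limma 9 were lower and 0 higher. The summed level of the spindle partners was 5256 to 5477 in the A-class and 7037 to 9150 in the reference, and that of the replication genes was 2338 to 2542 and 3600 to 4944. Both medians and both sums were lower in the A-class, as bmk-1 was. Against this direction, 6 of the 27 partners and 2 of the 16 replication genes were above 0, with zyg-9 and mdf-1 (1.10) called higher. What part these genes had in the difference of bmk-1 was not tested.

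**Figure D2:**
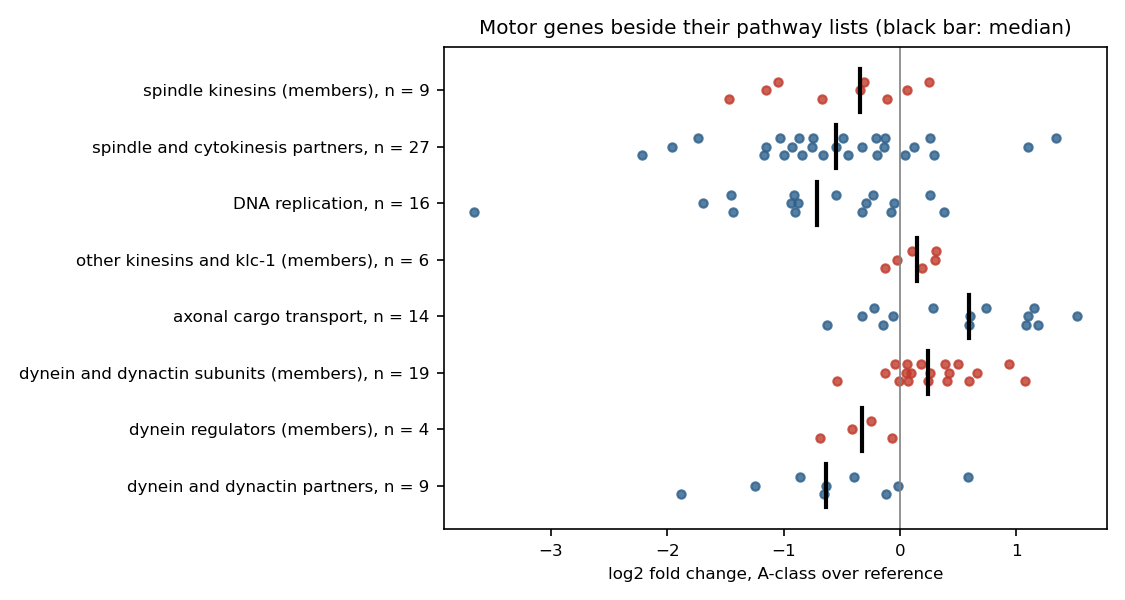
Log2 fold change (A-class over reference, x axis) of the motor genes by role (red points) and of the pathway lists outside the set (blue points), with a black bar at the median of each row. The medians of the spindle kinesins, the spindle partners and the replication genes lie at -0.34, -0.55 and -0.71, and that of the axonal cargo transport genes at 0.59.

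The remaining kinesin genes, with the kinesin light chain klc-1, showed no member past the call. All 6 overlapped between the groups, their log2 differences ran from -0.13 to 0.31 with a median of 0.14, and their smallest limma adjusted p was 0.229; none had an unadjusted p under 0.05 and SAM called none. klp-4, a kinesin-3 that carries glutamate receptors along the ventral cord, read 103, 78.6 and 97.4 in the A-class and 111, 97.4, 74.3 and 131 in the reference. The A-class values lay inside the span of the reference, and the log2 difference of -0.13 had a 95% interval of -0.59 to 0.33 (limma adjusted p 0.673), so a decrease of the size seen for bmk-1 lies outside it. The second klp-4 probe set pointed the other way (0.42, limma adjusted p 0.163).

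klp-6, a kinesin-3 of male ciliated sensory neurons that localizes polycystins, read 23.4, 46.4 and 23.3 in the A-class and 23.7 on each of the 4 reference arrays. The identical values are a feature of the deposited table: 8352 of its 22548 probe sets (37.0%) had the same value on at least 2 arrays, and so did 10 of the 38 probe sets used here. A-class 2 alone was above the others, and the log2 difference for klp-6 went from 0.31 (limma adjusted p 0.384) to -0.02 without it. vab-8, a kinesin-like protein that directs posterior cell migration and axon outgrowth, differed by 0.10 (limma adjusted p 0.719). The vab-8 probe set used was dim, with means of 45.95 in the A-class and 42.34 in the reference. Its second probe set, with means of 328.8 and 226.9, gave 0.53 (limma adjusted p 0.0888). klc-1, a light chain through which kinesin-1 takes up cargo, ran from 66.1 to 95.4 in the A-class and from 57.1 to 77.8 in the reference (log2 difference 0.30, limma adjusted p 0.229). klp-13 differed by 0.19, and klp-10, which RefSeq lists as a pseudogene, by -0.03.

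The chains that complete kinesin-1 and the main kinesin-3 of axons carry other names and were outside the set. unc-116, the kinesin-1 heavy chain, read 2102, 2012 and 2013 in the A-class and 1521 to 2602 in the reference (log2 difference -0.06, limma adjusted p 0.832). klc-2, the other kinesin light chain, read 655 to 730 against 782 to 978 (-0.33, limma adjusted p 0.0895), and unc-104, the kinesin-3 that carries synaptic vesicle precursors, read 538 to 684 against 215 to 578 (0.60, limma adjusted p 0.228). None of these motor chains passed the call. Of the 14 axonal cargo transport genes to which they belong, limma called 3 higher and 0 lower, where 2.20% and 3.30% of all genes were. Their median was 0.59. SAM also called 3 higher and 0 lower. At an unadjusted p under 0.05 with limma, 8 of the 14 were higher and 2 lower, where 3089 and 2716 of all 17118 genes were. The 3 called higher by limma were unc-69 (log2 difference 1.19), jip-1 (1.10), an adaptor between kinesin-1 and its cargo, and unc-76 (1.08), a kinesin-1 binding protein of axon growth. Of 6 genes for the motors of cilium transport, 0 were called in either direction by limma or by SAM (smallest limma adjusted p 0.0636), and 2 were higher at an unadjusted p under 0.05.

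**Figure D3:**
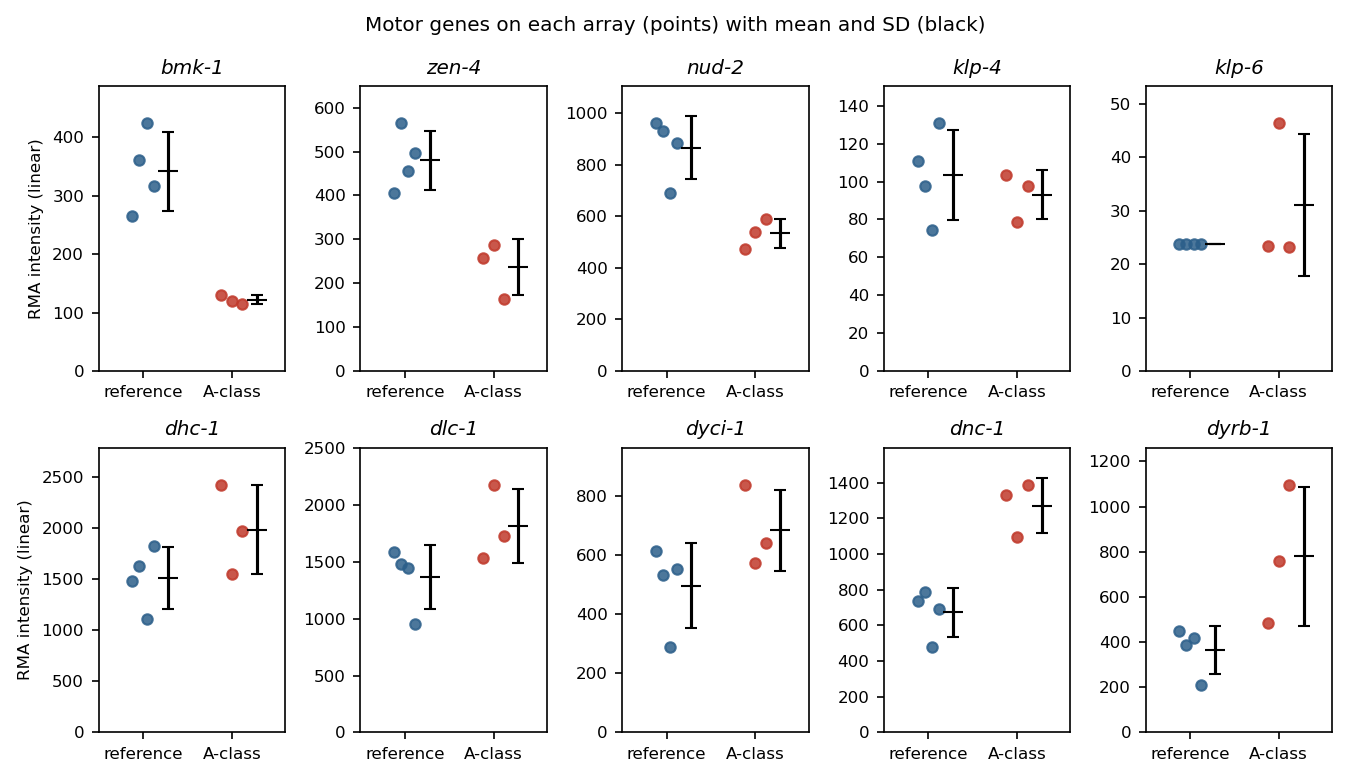
Linear RMA intensity (y axis, from 0) of 10 motor genes on each reference array (blue) and each A-class array (red), with the mean and SD of the group in black. The points of bmk-1, zen-4 and nud-2 lie lower in the A-class without overlap, those of dnc-1 and dyrb-1 lie higher without overlap, and those of klp-4, klp-6, dhc-1, dlc-1 and dyci-1 overlap.

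The 19 subunits of dynein and dynactin that the symbol rule took had no gene past the call in either direction with limma. Of their log2 differences 15 were above 0 and 4 below. Over all 17118 genes 9610 were above 0 and 7508 below. At an unadjusted p under 0.05, 5 of the 19 were higher and 0 lower, where 3089 of all genes were higher and 2716 lower. SAM called 1 of the 19 higher and 0 lower, against 3.09% and 4.85% of all genes. The median of the 19 was 0.24. On 5 of the 19 the A-class arrays were all above the reference arrays, where 17.1% of all genes were so separated. On 0 of the 19 were they all below. Dynactin's arp-1, cap-1 and cap-2 carry other names, so these counts leave them out. Their log2 differences were -0.65, -0.02 and 0.58 (limma adjusted p 0.0201, 0.927 and 0.0259). All A-class arrays were below all reference arrays for arp-1 and above them for cap-2.

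dhc-1, the heavy chain that holds the motor domain of cytoplasmic dynein, read 2426, 1556 and 1975 in the A-class and 1483, 1634, 1110 and 1825 in the reference. A-class 2 lay within the reference values, and the log2 difference of 0.39 had a 95% interval of -0.09 to 0.87 (limma adjusted p 0.219). The other heavy chain genes, dhc-4 and dhc-3, differed by 0.24 and 0.09 with overlapping groups. Both were dim, below the array medians of 66.9 to 70.1. The A-class and reference means were 59.98 and 50.58 for dhc-4 and 21.17 and 19.77 for dhc-3. No heavy chain had an unadjusted p under 0.05. dyci-1, the intermediate chain that joins dynein to dynactin, read 839, 576 and 642 against 614, 534, 290 and 553, with a log2 difference of 0.50 ± 0.27 (SE) and a limma adjusted p of 0.22. Its second probe set went the other way without overlap, with 149, 71.4 and 82.8 in the A-class and 175, 267, 240 and 223 in the reference (-1.22, limma adjusted p 0.0161), so the direction for dyci-1 depends on the probe set. dli-1, the light intermediate chain, was measured tightly, at 494 to 531 in the A-class and 373 to 424 in the reference. Its log2 difference of 0.40 ± 0.11 (SE) had a limma adjusted p of 0.0371 and stayed under the 1.7-fold limit.

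Among the 8 light chains, which bind the tail of dynein and some of its cargo, dyrb-1 had the widest difference. This roadblock-type light chain read 483, 758 and 1097 in the A-class and 450, 385, 419 and 212 in the reference. The groups did not overlap, but the lowest A-class array was close to the highest reference array and the log2 SD within the A-class was 0.59. The difference was 2.09-fold (log2 1.07 ± 0.33 SE, 95% interval 0.31 to 1.83) with a limma adjusted p of 0.0608, and it ran from 0.78 without A-class 3 to 1.37 without A-class 1. In module 1 dyrb-1 differed by 1.56 and between the single pair in module 2 by 0.33. dlc-1, a light chain shared by dynein and other complexes, read 1536, 2178 and 1731 against 1590, 1484, 1445 and 957, which overlap (log2 difference 0.42, 95% interval -0.05 to 0.89, limma adjusted p 0.184). dylt-2, a Tctex-type light chain, was separated by a narrow margin, 58.4 to 77.1 against 49.5 to 57.8 (0.26, limma adjusted p 0.217). The other 5 light chains overlapped between the groups, with log2 differences from -0.54 (dlc-4) to 0.18 (dylt-3). Of these, dlc-2, dlc-4, dlc-6 and dylt-3 were dim, with group means from 20.27 (dlc-6, reference) to 41.55 (dlc-4, reference).

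Of the 6 dynactin genes in the set, 3 were higher in the A-class with an unadjusted p under 0.05, where 3089 of all 17118 genes were. Limma called 0 of the 6. dnc-1, the subunit related to p150Glued that grips both dynein and the microtubule, read 1330, 1095 and 1388 in the A-class and 734, 788, 477 and 690 in the reference. All A-class arrays were above all reference arrays. The means were 1271 ± 155 (SD, n = 3) and 672 ± 136 (SD, n = 4), a 1.91-fold difference (log2 0.94 ± 0.19 SE, 95% interval 0.50 to 1.37) whose limma adjusted p of 0.0134 was just above the limit. The second and the third dnc-1 probe sets gave 0.60 (limma adjusted p 0.0515) and 0.14 (limma adjusted p 0.681). dnc-6 and dnc-3 belong to the small subunits of dynactin. dnc-6 ran from 412 to 670 in the A-class and from 310 to 424 in the reference, with A-class 2 below reference 1 (log2 difference 0.66, limma adjusted p 0.0485). dnc-3 ran from 274 to 405 and from 202 to 270 without overlap (0.59, limma adjusted p 0.0564). dnc-2, the dynamitin subunit, differed by -0.01 with a 95% interval of -0.48 to 0.46, dnc-4 by 0.07 and dnc-5 by -0.13, all overlapping. The dnc-5 probe set used was dim, with means of 39.2 in the A-class and 42.9 in the reference. Its other probe set, with means of 304.5 and 282.7, gave 0.13 (limma adjusted p 0.626).

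The 4 regulators of dynein all had log2 differences below 0, with a median of -0.33 and 0 calls in either direction by limma and by SAM. At an unadjusted p under 0.05 1 was lower and 0 were higher, where 2716 of all 17118 genes were lower and 3089 higher. Over all genes 7508 log2 differences were below 0 and 9610 above. nud-2, the NudE homolog that links the LIS1 protein to dynein, read 474, 540 and 588 in the A-class and 962, 932, 689 and 885 in the reference. The groups did not overlap. The means were 534 ± 57.3 (SD, n = 3) and 867 ± 122 (SD, n = 4), so nud-2 was 1.62-fold lower in the mean (log2 -0.69 ± 0.15 SE, 95% interval -1.04 to -0.35, limma adjusted p 0.0176). Its second probe set gave 67.9, 66.2 and 65.9 against 155, 156, 115.8 and 164 and was called lower (-1.13, limma adjusted p 0.00215), which made nud-2 the only gene of the set whose probe sets differed in call.

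bicd-1, a Bicaudal-D adaptor that couples dynein to cargo, ran from 68.98 to 95.6 in the A-class and from 99.6 to 146 in the reference (-0.41, limma adjusted p 0.147). lis-1, the homolog of the human lissencephaly gene, differed by -0.07 with a 95% interval of -0.46 to 0.31 and overlapping arrays. nud-1, the NudC homolog, had the largest spread of the 38 genes within the A-class (log2 SD 0.87): it read 555 on A-class 1 and 193 and 199 on the other A-class arrays, around a reference of 275 to 367, so the log2 difference of -0.25 (limma adjusted p 0.634) stood for no single A-class array. The median log2 SD over the 38 genes was 0.253 within the A-class and 0.207 within the reference. Outside the set, 9 dynein and dynactin partners, arp-1, cap-1 and cap-2 among them, had a median of -0.64 with 1 called lower and 0 higher by limma. SAM called 3 lower and 0 higher, and at an unadjusted p under 0.05 with limma 5 were lower and 1 higher. The gene that limma called lower was unc-83, a nuclear envelope protein that recruits motors to move nuclei, at -1.88 (limma adjusted p 0.00297).

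**Figure D4:**
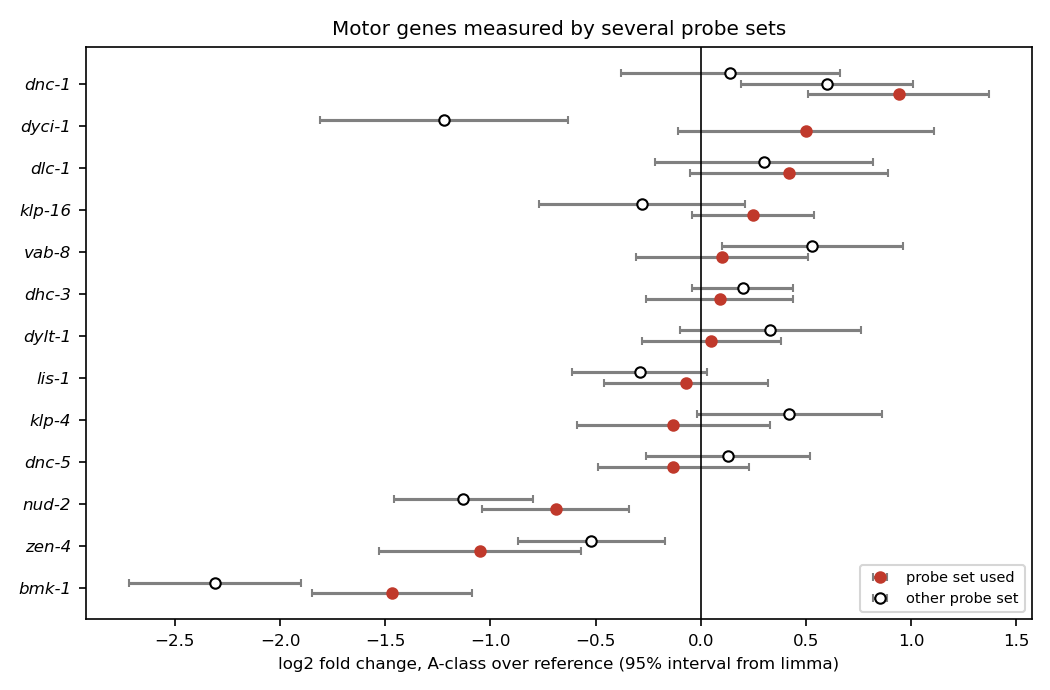
Log2 fold change (A-class over reference, x axis) with its 95% interval from limma for the 13 motor genes that more than 1 probe set measured, the probe set used in red and the others as open circles. The probe sets of bmk-1 and nud-2 all lie below 0, while those of dyci-1, klp-16, klp-4 and dnc-5 lie on both sides of 0.

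Several probe sets measured 13 of the 38 genes, 52 probe sets in all. Of these, 3 were called and all of them were lower, both for bmk-1 and 1 for nud-2, where 3.46% of all probe sets on the array were called lower and 2.20% higher. In 4 of the 13 genes (dnc-5, dyci-1, klp-16 and klp-4) the probe sets differed in the sign of the difference. The other 25 genes rested on a single probe set.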

How the data were processed

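The deposited table held linear intensity values that the authors made with RMA (background correction, quantile normalization and probe set summary of all 7 arrays together), and log2 of those intensity values was tested here. The annotation gave 1 gene symbol to 20766 of 22548 probe sets, several to 887 and none to 895. Each of the 17118 genes was represented by 1 probe set (_at before _s_at before others, then the highest mean). Limma 3.58.1 in R 4.3.3 compared 3 A-class with 4 reference arrays, with Benjamini-Hochberg adjustment over all probe sets and 5 residual degrees of freedom. The p-values set the group difference against the spread between arrays within a group, and the number of arrays limits the precision. They do not cover chip lot, hybridization day or strain, which the groups did not share. SAM used all 35 assignments of the arrays. Scripts were tested on simulated data. The methods give no limit for these arrays, so the thresholds are those chosen here. The motor genes and the gene lists were chosen with earlier results of these data known. Values on every array are given for called genes and, by role, for the gene with the largest difference and that with the highest mean; the probe sets that disagree were added after their values were seen. Scanner files served only for fluidics module, chip lot and day. No genome build was used, so no coordinates or sequences are given. Alternatives changed the test, limits, filter, normalization, offset, probe set choice, blocks and arrays left out.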

Additional observations from a re-analysis of the deposited data

Results flagged for a closer look

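In 5 of the 37 motor genes whose 4 reference arrays differed, 1 reference array stood apart from the other 3 on the log2 scale, its gap to the nearest of them taking a larger share of the whole range than Dixon's 95% critical value for 4 arrays (which chance passes in about 1 group in 20). dhc-3, a dynein heavy chain, read 22.9 on reference 1 and 18.6 to 18.9 on the others (share of the range 0.944). klp-17, a kinesin-14, read 46.3 on reference 1 and 67.5 to 72.7 on the others (0.837). dnc-6, a dynactin subunit, read 424 on reference 1 and 310 to 326 on the others (0.835), and this was the reference value that overlapped the A-class. dnc-5, another dynactin subunit, read 52.2 on reference 3 and 38.8 to 40.4 on the others (0.86). dlc-6, a dynein light chain, read 20.04 on reference 4 and 20.34 on each of the other 3 (1.0), so its flag rests on tied values and a gap far below 1 unit. Reference 1 was the array apart in 3 of the 5.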

How the results depend on the processing

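Over 21 alternatives the count of motor genes called lower (1, bmk-1) was 3 with SAM, 3 at an adjusted p under 0.05 and 3 without the dimmest 30% of probe sets (bmk-1, klp-7 and zen-4 each time, 27 genes left in the last), 2 after a second quantile normalization (bmk-1 and klp-7), 0 with only _at probe sets (25 genes, bmk-1 not among them) and 0 within fluidics module 1, where 5 were lower at an unadjusted p under 0.05 with limma. Leaving out 1 array at a time gave 1 to 2 lower (klp-19 added without reference 1, klp-7 without reference 3) and 0 higher. The count called higher (0) was 1, dnc-1, with SAM, at an adjusted p under 0.05 and after a second quantile normalization. With the replicate number as a block, over arrays numbered 1 to 3, limma called 0 motor genes lower and 0 higher (5 and 5 at an unadjusted p under 0.05), bmk-1 had a log2 difference of -1.50 (adjusted p 0.016), and 78 and 69 of all genes were called in place of 565 and 377. The sample titles give only a replicate number. Deviations from the group means of same-numbered arrays correlated at 0.034, -0.121 and -0.0533. Each A-class array correlated best with a reference array of another number. Such deviations sum to 0 within a group, so these few values cannot decide whether arrays were paired. Why calls were lost or gained was not tested, except that the _at setting left bmk-1 out. With the module as a block bmk-1 was called (adjusted p 0.00849) among 80 lower and 73 higher genes, and with hybridization day as a random block, chosen after seeing the data, it was called too (0.00957; 181 lower and 141 higher). The 17 genes followed were those given on every array and others with separated arrays or a low adjusted p. Only bmk-1 of them was called by the main rule, so for the others a kept side means no call. The 17 genes gave 350 alternative values with a call, of which 335 kept their direction and side of the threshold. Of these the direction changed once, for klp-6 without A-class 2 (-0.02, in a range of -0.02 to 0.47 over the arrays left out). In the single pair of module 2, which has no test, the sign differed for 2 of the 17, klp-4 (0.08) and klp-6 (-0.02). Signal over background was not used here, so how it limits the dimmest genes was not tested. The values for bmk-1 ran from -1.58 to -1.17.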
